A study of Mus musculus with 8 samples.

Results

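The genes described here are 30 genes of fatty acid oxidation and ketone body metabolism, taken by name from a table of 55418 gene symbols measured in mouse distal colon. They cover the import and activation of fatty acids, beta-oxidation in mitochondria and peroxisomes, ketone body enzymes and the regulators Ppara, Pparg and Ppargc1a. The rule is a list of names and uses no measured value, though the list was drawn up with earlier results of these data known, and all 30 were among the 17522 genes with enough reads to test. Total RNA of the distal colon was sequenced from 8 C57BL/6 mice aged 8 to 10 weeks, 2 in each of 4 groups, with 1 library per sample. WT untreated and WT DSS mice carried an unaltered NAIL locus, which encodes a long noncoding RNA. ΔNFκB untreated and ΔNFκB DSS mice carried the NAIL-ΔNFκB genotype. The sources used here do not say which bases that allele lacks, nor name founders or litters. DSS is dextran sulfate sodium, a polymer that injures the colon epithelium. DSS mice received 3% DSS for 4 days and then plain water for 4 days, so that tissue was taken after the DSS had been withdrawn.

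Long-chain fatty acids reach mitochondria as acyl-carnitines and are shortened in a repeated cycle of dehydrogenation, hydration, a further dehydrogenation and thiolysis. Electrons leave the cycle through the electron transfer flavoprotein to ubiquinone, and the acetyl-CoA enters the citric acid cycle or is made into ketone bodies. Colonocytes are known for drawing much of their energy from butyrate, a short fatty acid made by gut bacteria, which they oxidise in mitochondria. PPARα and PPARγ are nuclear receptors that bind fatty acids and activate genes of fatty acid metabolism, and PGC-1α, the product of Ppargc1a, is a coactivator for them.

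The libraries held 9229861 to 16935961 counts. Within a group, log2 values of the libraries had a Pearson r of 0.974 to 0.981 over genes, which are not independent replicates. The untreated WT replicate 2 and both ΔNFκB untreated mice were male by their Y-linked transcripts, which summed to 233 to 248.4 CPM (reads of a gene scaled to the library total by TMM), and the other 5 mice were female, with at most 0.183. In ΔNFκB mice DSS and sex therefore cannot be told apart by the groups alone. Ribosomal RNA-like genes took 3.46% to 6.69% of counts in DSS libraries and 0.686% to 1.83% in untreated ones. Transcripts of the mitochondrial genome took 7.27% to 14.02% in DSS libraries and 14.96% to 17.58% in untreated ones. Gm16685, known as the gene of mouse NAIL (background, not from the files), had 3 and 20 reads untreated and 57 and 126 with DSS in WT mice, against 3 and 4 untreated and 55.1 and 86 with DSS in ΔNFκB mice, so that its count does not separate the genotypes after DSS.

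In untreated WT colon Acadl, Etfa, Acadvl, Acat1 and Acaa2 had the highest levels per exon length of the members. Levels between genes are given in RPKM, counts scaled to both exon length and library size, as mean ± SD with n = 2. Exon length here is the union of all annotated exons, which is long for some members (8730 bases for Hadha against 2005 for Acadl). In CPM, Cpt1a and Hadha were highest in the same libraries, at 251.4 ± 15.3 and 251 ± 20.3. Acadl, the long-chain acyl-CoA dehydrogenase, came first at 69.2 ± 15.02 RPKM. Etfa, of electron transfer, followed at 44.3 ± 2.34, Acadvl at 39.6 ± 2.43, Acat1 at 36.8 ± 0.560 and Acaa2 at 36.5 ± 1.83. Acat1 and Acaa2 lay within each other's spread, as did Acads, Acadm and Slc25a20 at 26.7 ± 4.82, 26.6 ± 1.29 and 26.4 ± 10.4. The regulators Pparg and Ppargc1a stood at 12.9 ± 2.04 and 12.3 ± 1.74, also within their spread. Ppara was low at 1.44 ± 0.0288, and the lowest members were Acaa1b at 1.10 ± 0.0563 and Slc27a2 at 0.647 ± 0.258.

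The promoters of the members were compared with all promoters of the RefSeq table (GRCm38.p6) for motifs that PPAR and related receptors can bind, because 21 of the 30 members fell with DSS in WT mice. A promoter entry existed for 26 of the 30 members, as 30 promoters, and the 250 bases before each start were searched on both strands. Acaa2, Decr1, Acat1 and Hsd17b4 had no entry. The core motif AGGTCA was in 7 of 30 member promoters (23.3%) and in 4607 of 32851 promoters of all genes (14.0%). The repeat of AGGTCA with 1 base between the copies, which can overlap the core motif, was found without mismatch in 0 member promoters and 0.0335% of all. With at most 2 mismatches it was in 2 member promoters, of Echs1 and Etfa (6.67%), and in 3.24% of all. The longer motif TCAAGGTCA was in 0 member promoters and 0.387% of all. These matches are letters and not shown binding sites. The stretches below show the matches of 5 of those promoters, with the matched bases in capitals, and the gap between the starts of Hadha and Hadhb. They are given 5′ to 3′ on the strand of the gene, with positions counted back from its start, and come from bases outside every annotated exon. Acadm at chr3:153944764-153944893 (minus strand) has the reverse complement of the core motif, Acadvl at chr11:70015449-70015578 (minus) the motif itself 87 bases before the start, and Cpt1a at chr19:3323144-3323273 (plus) its reverse complement 94 bases before. Echs1 at chr7:140116477-140116606 (minus) and Etfa at chr9:55512250-55512379 (minus) have the repeat with 2 mismatches, beginning 83 and 77 bases before the start. Hadha and Hadhb encode the subunits of the mitochondrial trifunctional protein and start back to back, with 85 bases at chr5:30155163-30155247 (shown on the plus strand, that of Hadhb) between their starts in GENCODE M21, while the RefSeq starts have 272 bases between them.
Acadm: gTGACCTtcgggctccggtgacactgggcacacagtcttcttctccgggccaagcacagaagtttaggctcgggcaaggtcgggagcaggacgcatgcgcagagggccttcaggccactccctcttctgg
Acadvl: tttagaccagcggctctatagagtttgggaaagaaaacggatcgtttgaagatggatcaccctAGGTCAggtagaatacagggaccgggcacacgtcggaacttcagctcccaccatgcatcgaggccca
Cpt1a: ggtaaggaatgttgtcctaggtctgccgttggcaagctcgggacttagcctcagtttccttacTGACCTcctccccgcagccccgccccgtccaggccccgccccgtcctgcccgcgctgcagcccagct
Echs1: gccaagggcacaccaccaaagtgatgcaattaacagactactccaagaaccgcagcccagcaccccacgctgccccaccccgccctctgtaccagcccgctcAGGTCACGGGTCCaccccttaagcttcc
Etfa: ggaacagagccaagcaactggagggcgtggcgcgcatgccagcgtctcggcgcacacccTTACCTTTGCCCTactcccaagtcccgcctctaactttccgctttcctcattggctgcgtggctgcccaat
Hadhb: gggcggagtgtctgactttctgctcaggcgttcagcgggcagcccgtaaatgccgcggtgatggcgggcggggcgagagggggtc

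In WT mice some fatty acid oxidation genes of every role fell with DSS, from the carnitine shuttle to the ketone body enzymes. The other 9 members did not pass, Acadl and Acads among them. Of the 30 members, 21 were lower and 0 higher by edgeR's quasi-likelihood test at an adjusted p under 0.05, where 18.8% of all genes tested were lower and 17.2% higher. The median log2 fold change was -0.85 over the members and 0.00 over all genes. In 26 of 30 members both DSS libraries lay below both untreated ones, against 35.4% of all genes. The summed level of the members was 2487 ± 161 CPM in WT untreated and 1474 ± 41.0 in WT DSS libraries (mean ± SD, n = 2). Of the 21 calls, 18 held under all 15 alternative analyses, and Slc27a2, Cpt1a and Slc25a20 did not. Because the tissue was sequenced in bulk, fewer epithelial cells and less RNA of these genes per cell cannot be told apart.

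In ΔNFκB mice the same list split. DSS lowered 14 members and raised 3, where 19.2% of all genes were lower and 16.2% higher. The median log2 fold change was -0.36 over the members and -0.04 over all genes. Summed member levels were 2126 ± 114 CPM in ΔNFκB untreated and 1750 ± 111 CPM in ΔNFκB DSS libraries. The genotypes had 12 lowered members in common, 57.1% of the 21 in WT and 85.7% of the 14 in ΔNFκB mice, where over all genes the 1463 lowered in both were 44.4% and 43.5%. The DSS response itself differed between the genotypes for 10 members, all with a higher value in ΔNFκB mice, where 8.63% of all genes passed in that direction and 9.07% in the other, which held 0 members. The median difference of the responses was 0.48 over the members and -0.05 over all genes.

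The counts in ΔNFκB mice and the counts for the difference depended on single libraries. With a sex term, which only the 2 untreated WT mice can estimate, 7 of the 17 ΔNFκB calls remained, and without ΔNFκB untreated replicate 1 or 2 or ΔNFκB DSS replicate 1 or 2 there were 11, 10, 8 and 11. Acsl5, Acadm, Hadh, Acaa2, Ehhadh and Pparg kept their calls in ΔNFκB mice in all 15 alternatives. The 10 differences of response kept their calls in the 7 alternatives that used every library, the sex term included. Leaving out untreated WT replicate 2 brought them to 6, and leaving out WT DSS replicate 1 or 2 to 5 or 1. They numbered 3 or 5 when ΔNFκB untreated replicate 1 or 2 was left out and 0 without ΔNFκB DSS replicate 2, while the median difference stayed between 0.39 and 0.61.

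**Figure D1:**
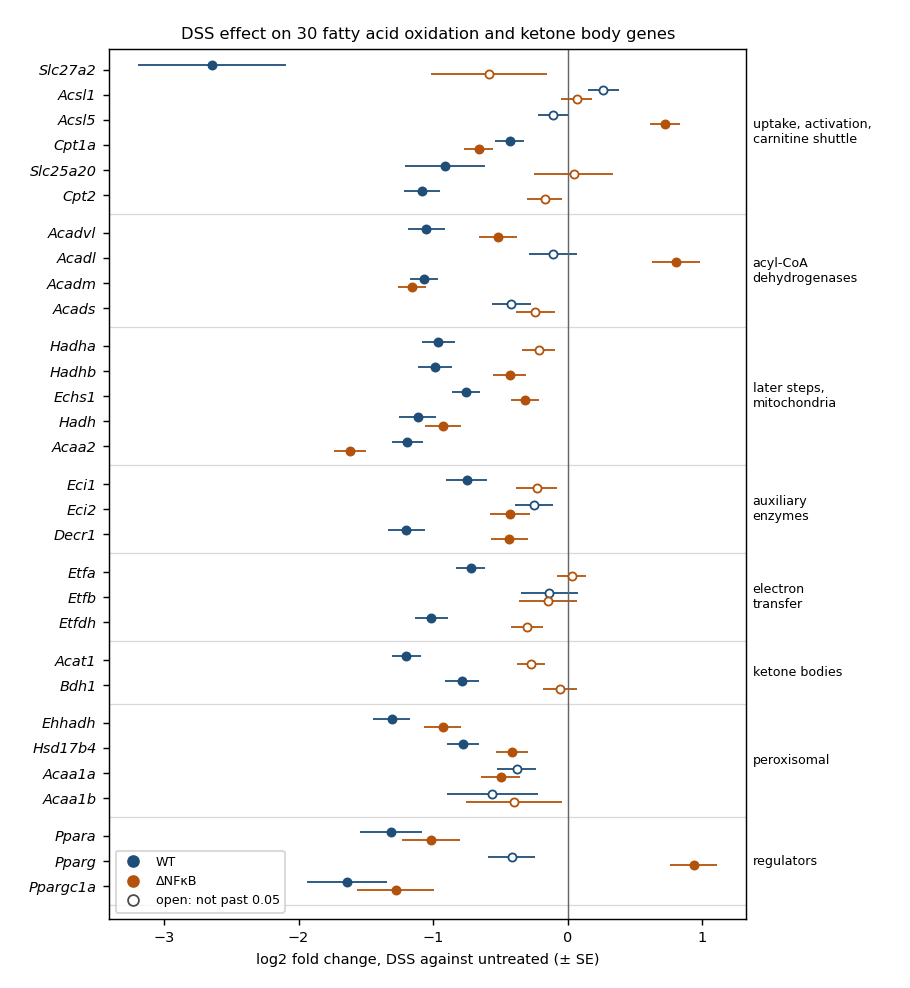
The horizontal axis is the log2 fold change of DSS against untreated mice with its SE, and each line is 1 of the 30 members, ordered by role, in WT (blue) and ΔNFκB mice (orange), with filled points where the adjusted p was under 0.05. All 21 filled WT points lie below 0, and the 3 filled orange points above 0 are Acsl5, Acadl and Pparg.

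Cell type markers moved in the same libraries. The 12 epithelial markers (Epcam, Cdh1 and keratins among them) summed to 11870 and 14560 CPM untreated and 8858 and 8209 with DSS in WT mice, and 10670 and 11920 untreated and 11200 and 11740 with DSS in ΔNFκB mice. With DSS 8 of the 12 were lower and 0 higher in WT mice, 0 lower and 1 higher in ΔNFκB mice, and 5 had a higher response in ΔNFκB mice. Absorptive colonocyte markers summed to 5333 and 8809 CPM untreated and 1667 and 1822 with DSS in WT mice, against 4562 and 6174 untreated and 2701 and 2357 with DSS in ΔNFκB mice. Of the 10 tested, 6 were lower and 0 higher with DSS in WT mice, and 5 lower and 1 higher in ΔNFκB mice. Their responses were higher in ΔNFκB mice for 3 and lower for 2. Of 7 goblet cell markers 6 were lower and 0 higher with DSS in WT mice, and 4 lower and 2 higher in ΔNFκB mice. The responses of all 7 goblet cell markers were higher in ΔNFκB mice. Over all genes 18.8% were lower and 17.2% higher with DSS in WT mice, and 19.2% and 16.2% in ΔNFκB mice. The response was higher in ΔNFκB mice for 8.63% of all genes and lower for 9.07%. Neutrophil markers summed to 1.04 and 1.27 CPM untreated and 291 and 394 with DSS in WT mice, and 12.9 and 0.569 untreated and 71.9 and 73.7 with DSS in ΔNFκB mice. Smooth muscle markers fell in both genotypes, from 3183 to 6277 CPM in untreated to 816 to 1172 in DSS libraries. No epithelial marker was at 0 in any library, at most 1 of 11 absorptive colonocyte markers was, and 4 to 6 of 8 neutrophil markers were at 0 in the WT untreated libraries and ΔNFκB untreated replicate 2. The plot of members and marker lists shows that epithelial and member sums were lowest in the same WT DSS libraries. What part the cell composition has in the members' changes was not tested.

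**Figure D2:**
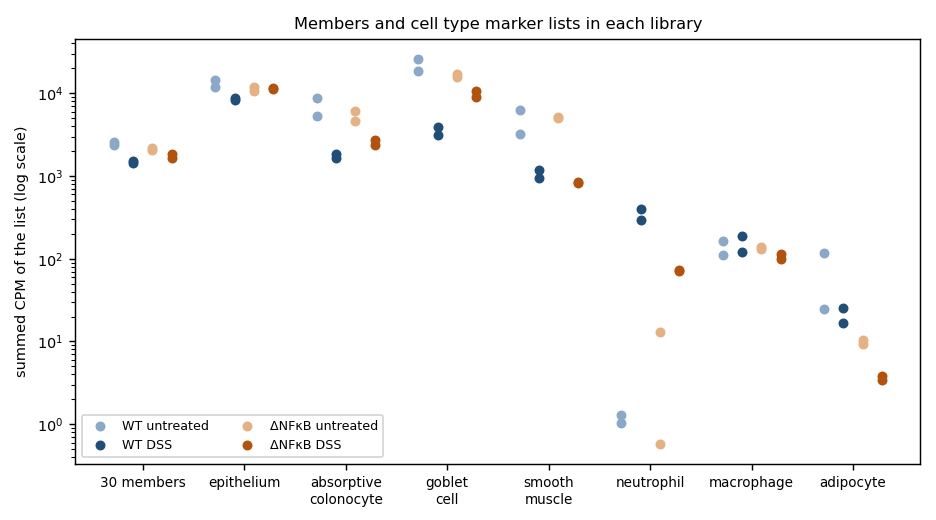
Each point is 1 library, the vertical axis (log scale) is the summed CPM of the 30 members or of a marker list, and colours are the 4 groups. The members and the epithelial markers are lowest in the WT DSS libraries, and neutrophil markers are highest there.

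Levels were therefore also expressed relative to the epithelial markers, as log2 of a member's CPM over the geometric mean of the 12 markers in the same library, with no test. That geometric mean changed by -0.56 on the log2 scale with DSS in WT and by 0.05 in ΔNFκB mice. On this scale the members' median change was -0.27 in WT and -0.40 in ΔNFκB mice. The ΔNFκB change minus the WT change had a median of -0.13 over the 30 members, with 12 positive and 18 negative. For the 10 members whose responses differed by edgeR's test, it ran from 0.092 to 0.74 with a median of 0.18. Those 10 were selected for a high difference in these same data, and the ratio lowers the difference of every gene alike. Their signs on this scale are therefore no separate evidence. The ratio shifts every gene of a library by the same amount, and over all genes the median change on it was 0.57 in WT and -0.086 in ΔNFκB mice. In WT mice 15 of 30 members lay below the untreated libraries without overlap and 6 above, where 10.5% of all genes lay below and 63.2% above. In ΔNFκB mice 23 of 30 lay below and 3 above, where 40.5% of all genes lay below and 31.2% above.

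Import and activation changed unevenly. Slc27a2, which imports and activates very long-chain fatty acids, was counted at 39 and 26 reads untreated and 6 and 2 with DSS in WT mice, against 33 and 44 untreated and 20 and 20 with DSS in ΔNFκB mice. Its fall was -2.64 ± 0.55 in WT mice (log2 fold change ± SE, adjusted p = 0.0081) and -0.59 ± 0.43 in ΔNFκB mice (adjusted p = 0.32), and the difference did not pass (2.06 ± 0.71, adjusted p = 0.079). The WT value was no longer past the threshold when WT DSS replicate 2 was left out. Acsl5, a long-chain acyl-CoA synthetase of the gut (chr19:55251938-55297720, plus strand), stood at 105 and 125 CPM untreated and 104 and 109.9 with DSS in WT mice, and 83.4 and 83.8 untreated and 137 and 139 with DSS in ΔNFκB mice. The ΔNFκB DSS libraries were the highest of all 8, and the ΔNFκB untreated ones the lowest. Acsl5 rose with DSS in ΔNFκB mice (0.72 ± 0.11, adjusted p = 0.0022), its value in WT mice was -0.11 ± 0.11 (adjusted p = 0.47), and the responses differed by 0.83 ± 0.16 (adjusted p = 0.015). The related synthetase Acsl1 did not pass in either genotype, at 0.26 ± 0.11 in WT and 0.07 ± 0.11 in ΔNFκB mice.

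The carnitine shuttle carries activated long-chain fatty acids into mitochondria. Cpt1a, the outer-membrane transferase that controls the rate of entry, stood at 241 and 262 CPM untreated and 185 and 188 with DSS in WT mice, against 239 and 268 untreated and 162 and 158 with DSS in ΔNFκB mice. In both genotypes the DSS libraries lay below the untreated ones, by -0.43 ± 0.11 in WT (adjusted p = 0.018) and -0.66 ± 0.11 in ΔNFκB mice (adjusted p = 0.0028). The WT call was lost in 4 of 15 alternatives (with a sex term, without WT untreated replicate 2 and without either WT DSS library), at -0.46 to -0.34 over all of them, and the ΔNFκB call was lost with a sex term. Cpt2, the inner-membrane transferase (chr4:107903981-107923610, minus strand), stood at 69.9 and 81.4 CPM untreated and 38.9 and 32.5 with DSS in WT mice, and 60.4 and 56.9 untreated and 49.99 and 54.3 with DSS in ΔNFκB mice. It fell by 1.08 on the log2 scale in WT mice (SE 0.13, adjusted p = 0.00088), its value in ΔNFκB mice was -0.17 ± 0.13 (adjusted p = 0.34), and the responses differed by 0.91 ± 0.19 (adjusted p = 0.018). Slc25a20, the translocase between the transferases, was 92.0 and 164 CPM in WT untreated and 80.3 and 55.4 in WT DSS libraries. Its WT value was -0.91 ± 0.30 (adjusted p = 0.043), and -0.41 without the high WT untreated replicate 2. The call was lost in 7 of 15 alternatives, among them the replicate block, a sex term and the removal of any 1 DSS library. In ΔNFκB mice Slc25a20 was 77.0 and 112 CPM untreated and 104 and 90.1 with DSS, so the groups overlapped.

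The acyl-CoA dehydrogenases, which open the cycle for chains of different length, did not move as a block. Acadm, the medium-chain enzyme, stood at 100.5 and 108 CPM untreated and 48.8 and 50.5 with DSS in WT mice, against 108 and 102 untreated and 44.9 and 48.7 with DSS in ΔNFκB mice. It fell to 47.7% of the untreated level in WT mice (-1.07 ± 0.10, adjusted p = 0.00032) and to 44.8% in ΔNFκB mice (-1.16 ± 0.10, adjusted p = 0.00024), and the difference of the responses was -0.09 ± 0.14 (adjusted p = 0.68). Acadl, the long-chain enzyme (chr1:66830839-66863277, minus strand), stood at 117 and 160.0 CPM untreated and 117 and 140.3 with DSS in WT mice, and 91.5 and 103 untreated and 154 and 185 with DSS in ΔNFκB mice. Its WT groups overlapped, while both ΔNFκB DSS libraries lay above both untreated ones. Acadl rose by 0.80 ± 0.18 in ΔNFκB mice (adjusted p = 0.0095), was -0.11 ± 0.18 in WT mice (adjusted p = 0.64), and the responses differed by 0.91 ± 0.25 (adjusted p = 0.04). The ΔNFκB rise was 1.25 with a sex term and not past the threshold without ΔNFκB untreated replicate 1 or DSS replicate 2. Acadvl, the very long-chain enzyme, fell by 1.05 on the log2 scale in WT mice (SE 0.14) and by 0.52 in ΔNFκB mice (SE 0.14, a call lost in 4 of 15 alternatives), but 42.9% of its exon bases overlap Dvl2 on the other strand and the strand setting of the counting is not given in the sources used here. Acads, for short chains, did not pass in either genotype (-0.42 ± 0.14 and -0.24 ± 0.14).

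All 5 mitochondrial members for hydration, the later dehydrogenation and thiolysis fell with DSS in WT mice, and 4 of 5 in ΔNFκB mice. Over all genes 18.8% and 19.2% were lower. Hadha, the alpha subunit of the trifunctional protein (chr5:30118304-30155162, minus strand), stood at 237 and 265 CPM untreated and 139 and 118 with DSS in WT mice, against 193 and 188 untreated and 158 and 169 with DSS in ΔNFκB mice. It changed by -0.96 ± 0.12 in WT (adjusted p = 0.001), against -0.22 ± 0.12 in ΔNFκB mice (adjusted p = 0.19), a difference of 0.75 ± 0.17 (adjusted p = 0.025). Its head-to-head partner Hadhb, the beta subunit, changed by -0.99 ± 0.12 and -0.43 ± 0.12, and that difference did not pass (0.55 ± 0.17, adjusted p = 0.061). The call of Hadhb in ΔNFκB mice was lost in 4 of 15 alternatives, at -0.28 with a sex term, and 16.7% of its 75-base stretches also occur in other genes. Acaa2, the mitochondrial thiolase, stood at 57.2 and 53.3 CPM untreated and 23.0 and 25.4 with DSS in WT mice, and 57.2 and 52.1 untreated and 17.6 and 17.9 with DSS in ΔNFκB mice. It had the lowest adjusted p of the ΔNFκB members, falling by 1.62 on the log2 scale (SE 0.12, adjusted p = 0.00015) to 32.6% of the untreated level, and by 1.19 in WT mice (SE 0.12, adjusted p = 0.00035). Hadh, a hydroxyacyl-CoA dehydrogenase, fell in both genotypes (-1.11 ± 0.14 and -0.93 ± 0.14), and Echs1, the short-chain hydratase, changed by -0.76 ± 0.11 and -0.32 ± 0.11. The ΔNFκB call of Echs1 was lost in 14 of 15 alternatives.

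Auxiliary enzymes deal with the double bonds of unsaturated fatty acids. Decr1, the dienoyl-CoA reductase (chr4:15917240-15945507, minus strand), stood at 52.7 and 57.5 CPM untreated and 23.4 and 24.6 with DSS in WT mice, against 36.7 and 36.7 untreated and 24.1 and 30.2 with DSS in ΔNFκB mice. The WT untreated libraries stood apart above the other 6. Decr1 changed by -1.20 ± 0.14 in WT (adjusted p = 0.00065) and -0.43 ± 0.14 in ΔNFκB mice (adjusted p = 0.038), a difference of 0.76 ± 0.19 (adjusted p = 0.032). The ΔNFκB call was lost in 8 of 15 alternatives, at -0.27 without ΔNFκB DSS replicate 1. The isomerase Eci1 fell in WT mice (-0.75 ± 0.15, adjusted p = 0.007) and was -0.23 ± 0.15 in ΔNFκB mice (adjusted p = 0.26). For Eci2, another isomerase, the values were -0.25 ± 0.14 and -0.43 ± 0.15, and its ΔNFκB call was lost in 14 of 15 alternatives.

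Among the genes of electron transfer to ubiquinone, the RNA response of Etfa and Etfdh to DSS differed between the genotypes. Etfa, the alpha subunit of the electron transfer flavoprotein (chr9:55454508-55512243, minus strand), stood at 78.2 and 84.3 CPM untreated and 50.6 and 48.0 with DSS in WT mice, and 62.5 and 61.8 untreated and 59.1 and 67.8 with DSS in ΔNFκB mice. It fell in WT mice (-0.72 ± 0.11, adjusted p = 0.0022), its groups overlapped in ΔNFκB mice (0.03 ± 0.11, adjusted p = 0.86), and the responses differed by 0.75 ± 0.15 (adjusted p = 0.019). Etfdh, the oxidoreductase that hands the electrons to ubiquinone (chr3:79603788-79629500, minus strand), stood at 79.5 and 85.0 CPM untreated and 38.7 and 42.8 with DSS in WT mice, against 66.6 and 70.5 untreated and 50.7 and 60.4 with DSS in ΔNFκB mice. Its changes were -1.01 ± 0.12 (adjusted p = 0.00084) and -0.30 ± 0.12 (adjusted p = 0.084), with a difference of 0.71 ± 0.17 (adjusted p = 0.029). The call of the difference was lost in 3 of 15 alternatives for Etfa and in 6 for Etfdh. Etfb, the beta subunit, was listed at 4.92 to 6.77 CPM in all 8 libraries and passed in no comparison. Its count is uncertain, since 58.2% of its exon bases are shared with Gm45233 and Mir7051 on the same strand.

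The ketone body enzymes showed the same split. Acat1, the mitochondrial acetoacetyl-CoA thiolase (chr9:53580522-53610382, minus strand), stood at 139.8 and 137 CPM untreated and 62.8 and 57.7 with DSS in WT mice, and 106 and 95.01 untreated and 80.3 and 86.0 with DSS in ΔNFκB mice. The 4 groups did not overlap, with WT untreated highest and WT DSS lowest. Acat1 fell to 43.6% of the untreated level in WT mice (-1.20 ± 0.11, adjusted p = 0.00023) and was -0.27 ± 0.11 in ΔNFκB mice (adjusted p = 0.078), and the responses differed by 0.93 ± 0.15 (adjusted p = 0.0099). Of the 10 differences this one lost its call in only 1 alternative, without ΔNFκB DSS replicate 2 (adjusted p = 0.053). Bdh1, which interconverts acetoacetate and beta-hydroxybutyrate (chr16:31422280-31458901, plus strand), stood at 93.0 and 85.0 CPM untreated and 53.4 and 49.8 with DSS in WT mice, against 77.0 and 78.9 untreated and 66.7 and 83.2 with DSS in ΔNFκB mice. The ΔNFκB groups overlapped and the WT groups did not. The changes were -0.79 ± 0.13 in WT (adjusted p = 0.0029) and -0.06 ± 0.13 in ΔNFκB mice (adjusted p = 0.76), a difference of 0.73 ± 0.18 (adjusted p = 0.031), and 13.7% of the exon bases of Bdh1 overlap Gm15743 on the other strand.

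Of the 4 peroxisomal members 2 fell in WT and 3 in ΔNFκB mice, where 18.8% and 19.2% of all genes were lower. The difference between the genotypes passed edgeR's test for 0 of the 4, and 0 had an unadjusted p under 0.05, where 35% of all genes did. Ehhadh, the bifunctional enzyme of peroxisomal oxidation, stood at 39.2 and 39.5 CPM untreated and 14.4 and 17.4 with DSS in WT mice, and 33.6 and 33.6 untreated and 16.7 and 18.6 with DSS in ΔNFκB mice. Its changes were -1.31 ± 0.14 in WT (adjusted p = 0.00045) and -0.93 ± 0.14 in ΔNFκB mice (adjusted p = 0.0017). Hsd17b4, another bifunctional enzyme, changed by -0.78 ± 0.12 and -0.41 ± 0.12, both past the threshold, the ΔNFκB call being lost in 7 of 15 alternatives. For the thiolase Acaa1a the values were -0.38 ± 0.14 in WT (adjusted p = 0.072) and -0.50 ± 0.15 in ΔNFκB mice (adjusted p = 0.029), the latter lost in 5 of 15 alternatives, at -0.29 without ΔNFκB untreated replicate 2. Its near-copy Acaa1b was at 1.23 to 2.23 CPM and did not pass, and the copies share 9.5% and 24.4% of their 75-base stretches, so that reads can be split between them.

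**Figure D3:**
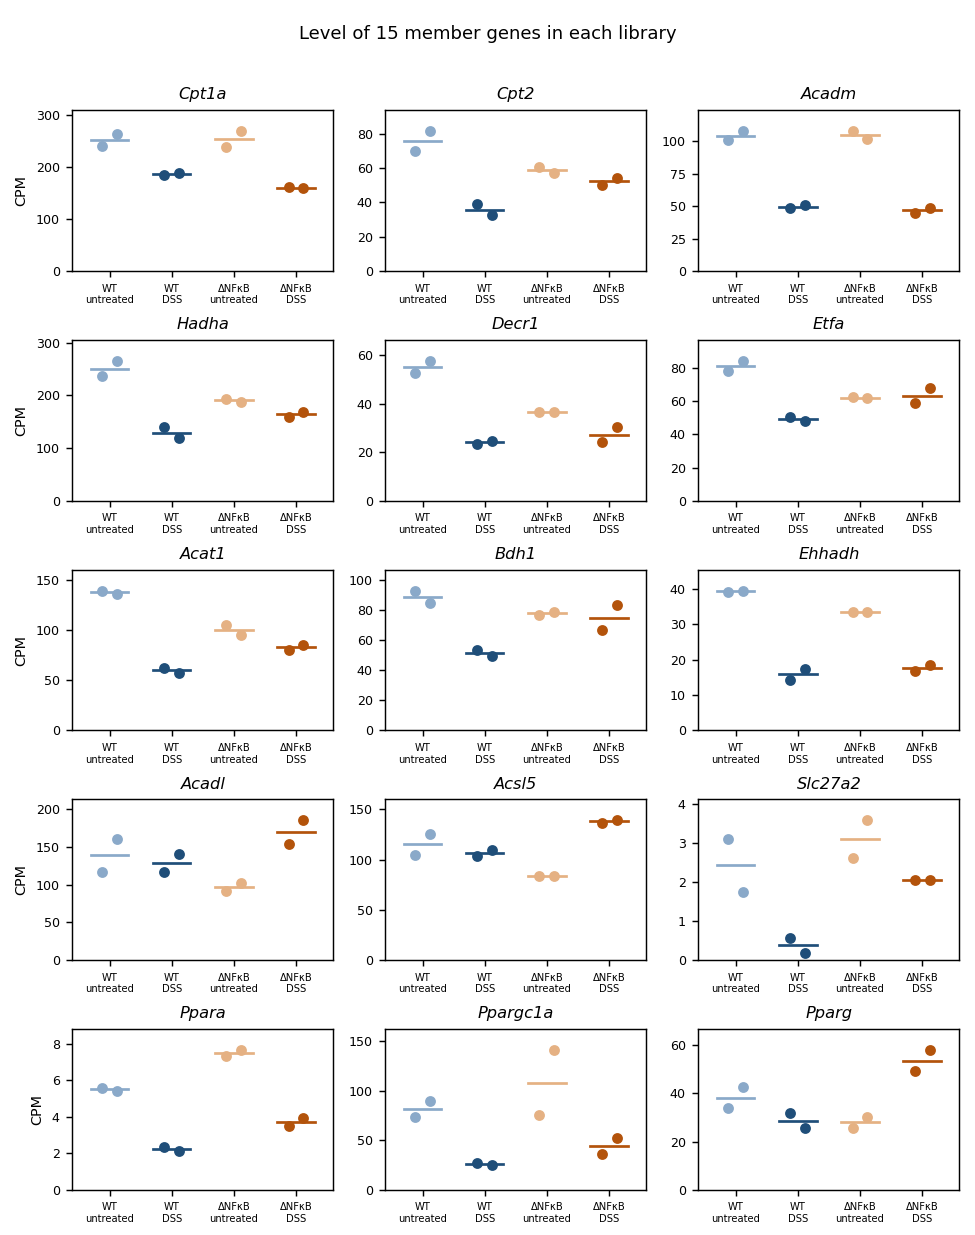
Each panel is 1 member, the vertical axis is CPM from 0, points are the 2 libraries of a group and bars their mean. Acadm and Ehhadh fall with DSS in both genotypes, Cpt2, Hadha, Etfa, Acat1 and Bdh1 stand lowest in WT DSS, and Acadl, Acsl5 and Pparg stand highest in ΔNFκB DSS.

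Among the regulators, Ppara and Ppargc1a fell in both genotypes and Pparg rose in ΔNFκB mice. Ppara, whose product drives oxidation genes in fasting, stood at 5.59 and 5.43 CPM untreated and 2.32 and 2.11 with DSS in WT mice, against 7.33 and 7.65 untreated and 3.48 and 3.92 with DSS in ΔNFκB mice. Its changes were -1.31 ± 0.23 (adjusted p = 0.0038) and -1.02 ± 0.22 (adjusted p = 0.0084). Ppargc1a stood at 72.9 and 89.1 CPM untreated and 27.0 and 24.9 with DSS in WT mice, and 75.3 and 141 untreated and 36.4 and 52.7 with DSS in ΔNFκB mice. Its changes were -1.64 ± 0.30 (adjusted p = 0.0044) and -1.28 ± 0.29 (adjusted p = 0.011), the latter -0.74 without the high ΔNFκB untreated replicate 2, and both ΔNFκB falls of Ppara and Ppargc1a lost their calls with a sex term and without ΔNFκB DSS replicate 1, that of Ppara with DESeq2 as well. Pparg (chr6:115360951-115490399, plus strand) stood at 33.9 and 42.5 CPM untreated and 31.9 and 25.5 with DSS in WT mice, against 25.6 and 30.3 untreated and 49.2 and 57.9 with DSS in ΔNFκB mice. The ΔNFκB DSS libraries were above the other 6. Pparg rose by 0.94 ± 0.17 in ΔNFκB mice (adjusted p = 0.0045), was -0.42 ± 0.17 in WT mice (adjusted p = 0.094), and had a difference of 1.35 ± 0.25 (adjusted p = 0.013), which lost its call without WT DSS replicate 2 or ΔNFκB DSS replicate 2. Pparg also marks fat cells, and the summed adipocyte markers were lowest in the same ΔNFκB DSS libraries, at 3.38 and 3.81 CPM against 9.27 to 119 in the other 6. In those 2 libraries 5 and 3 of the 7 adipocyte markers were at 0. What part fat cells have in the Pparg values was not tested.

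**Figure D4:**
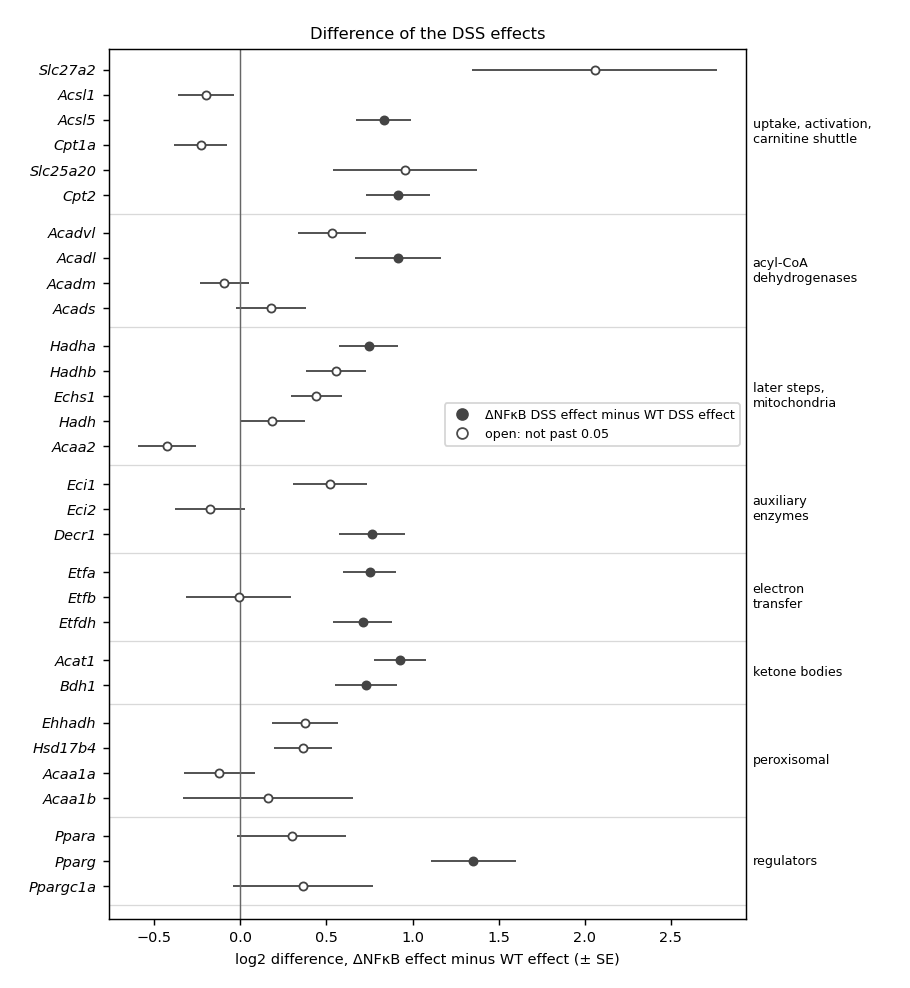
The horizontal axis is the DSS effect in ΔNFκB mice minus that in WT mice (log2, with SE), 1 line per member by role, filled where the adjusted p was under 0.05. The 10 filled points lie between 0.71 and 1.35, and the peroxisomal members are all open.

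Without DSS the genotypes did not differ for any member by edgeR's test: 0 of 30 passed, where 0.388% of all genes did, DESeq2 also gave 0, and 11 had an unadjusted p under 0.05, where 16.2% of all genes did. The median ΔNFκB minus WT was -0.22 over the members and 0.03 over all genes. Negative values were 24 of 30 for the members and 8205 of 17522 for all genes. The largest were Decr1 at -0.59 ± 0.13 (adjusted p = 0.13) and Acadl at -0.51 ± 0.18 (adjusted p = 0.23). These mice also differed in sex, as 1 of 2 WT and 2 of 2 ΔNFκB mice were male. The difference of responses equals the genotype difference after DSS minus the one without it. For Acat1 and Acsl5 the latter was -0.46 each (adjusted p = 0.13 and 0.15). Decr1 and Acadl, with the largest values without DSS, were not called after DSS. Decr1 then stood at 24.0 ± 0.893 CPM in WT and 27.1 ± 4.33 in ΔNFκB mice (mean ± SD, n = 2), and Acadl differed by 0.40.

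After DSS, when all 4 mice were female, 6 members were higher and 1 lower in ΔNFκB than in WT mice, where 8.32% and 11.7% of all genes were. The median was 0.23 over the members and 0.03 over all genes. Slc27a2 (2.41 ± 0.57, adjusted p = 0.023), Pparg (0.90 ± 0.17, adjusted p = 0.012), Cpt2 (0.55 ± 0.13, adjusted p = 0.025), Bdh1 (0.54 ± 0.13, adjusted p = 0.024), Acat1 (0.47 ± 0.11, adjusted p = 0.022) and Etfdh (0.45 ± 0.12, adjusted p = 0.037) were higher. Acaa2 was lower (-0.44 ± 0.12, adjusted p = 0.038). Acsl5 (0.37 ± 0.11, adjusted p = 0.053) and Ppara (0.74 ± 0.24, adjusted p = 0.061) missed the threshold. Epithelial markers were higher in 4 of 12 and lower in 0 in the same comparison, and goblet cell markers were higher in 7 of 7. Of 10 tested absorptive colonocyte markers 3 were higher and 2 lower. Etfdh lost this call in 11 of 15 alternatives and Acaa2 in 6, both with no filter on low counts and with DESeq2 among others. The 7 calls came to 3 without WT DSS replicate 1, 2 without ΔNFκB DSS replicate 1, and 0 without WT DSS replicate 2 or without ΔNFκB DSS replicate 2, where Etfdh was 0.29 and Bdh1 0.34. This comparison shares its libraries with the DSS effects above and is not separate evidence.

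Other genes of the same metabolism were taken from 8 lists holding 73 genes, of which 69 were tested. With DSS 7 were higher and 23 lower in WT mice and 15 higher and 23 lower in ΔNFκB mice, and the responses differed for 17, with 12 higher and 5 lower in ΔNFκB mice. The shares called were 43.5% in WT mice, 55.1% in ΔNFκB mice and 24.6% for the difference, where those of all genes were 36%, 35.4% and 17.7%. In the list of 4 further ketone body genes 2 fell and 1 rose in each genotype. Oxct1, which starts the use of ketone bodies, stood at 337 and 399 CPM untreated and 139 and 135 with DSS in WT mice, against 288 and 342 untreated and 203 and 228 with DSS in ΔNFκB mice. It fell by 1.43 on the log2 scale in WT (SE 0.14) and 0.55 in ΔNFκB mice (SE 0.14, a call lost in 4 of 15 alternatives, at -0.30 with a sex term), with a difference of 0.88 ± 0.20 (adjusted p = 0.023). Aacs, the cytosolic acetoacetyl-CoA synthetase that feeds lipid synthesis, stood at 72.4 and 79.1 CPM untreated and 88.9 and 74.4 with DSS in WT mice, and 66.8 and 61.5 untreated and 121 and 124 with DSS in ΔNFκB mice. It rose in ΔNFκB mice (0.93 ± 0.12, adjusted p = 0.00092) and was 0.11 ± 0.12 in WT mice (adjusted p = 0.50), a difference of 0.83 ± 0.17 (adjusted p = 0.018).

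Of the 14 other tested genes for uptake, transport and activation, 8 fell in WT and 11 in ΔNFκB mice, and 1 rose in WT mice. Over all genes 18.8% were lower and 17.2% higher in WT mice, and 19.2% lower in ΔNFκB mice. Slc5a8, a sodium-coupled transporter of butyrate, stood at 611 and 575 CPM untreated and 168 and 193 with DSS in WT mice, against 489 and 456 untreated and 235 and 303 with DSS in ΔNFκB mice. It fell in both genotypes (-1.72 ± 0.15 and -0.81 ± 0.15), by less in ΔNFκB mice (difference 0.91 ± 0.21, adjusted p = 0.026). Acsm3, which activates medium-chain fatty acids, fell to 27.6% in WT and 29.6% in ΔNFκB mice, though 39.7% of its exon bases overlap Eri2 on the other strand. Acsl3, a long-chain synthetase, changed by -2.04 ± 0.16 and -2.01 ± 0.15. Cd36, a fatty acid receptor found on fat, muscle, endothelial and immune cells as well, stood at 21.2 and 26.6 CPM untreated and 11.5 and 12.9 with DSS in WT mice, and 17.7 and 20.3 untreated and 3.28 and 3.19 with DSS in ΔNFκB mice. Its fall was larger in ΔNFκB mice (-2.55 ± 0.20) than in WT mice (-0.97 ± 0.17), by -1.58 ± 0.26 (adjusted p = 0.011). Summed adipocyte markers were also lowest in the ΔNFκB DSS libraries, where 5 and 3 of the 7 were at 0. What part fat cells have in the Cd36 values was not tested.

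**Figure D5:**
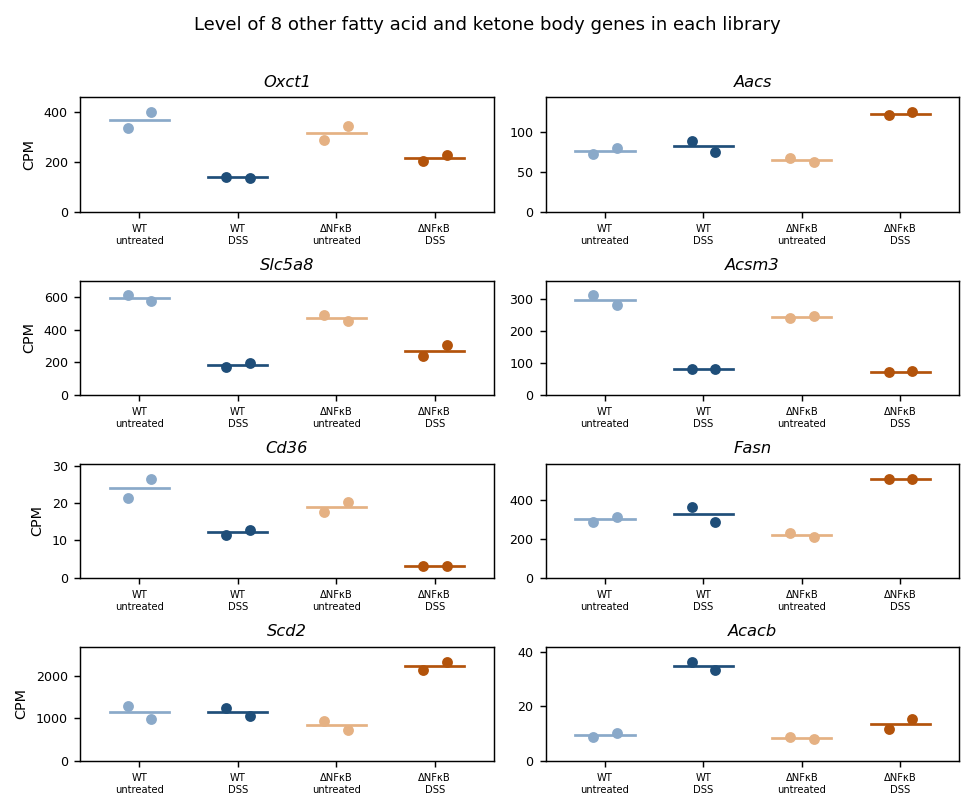
Each panel is 1 gene outside the 30 members, the vertical axis is CPM from 0, points are the 2 libraries of a group and bars their mean. Cd36 is lowest in ΔNFκB DSS, Oxct1 and Slc5a8 in WT DSS, and Aacs, Fasn and Scd2 are highest in ΔNFκB DSS.

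The 11 genes listed under fatty acid synthesis, a pathway that runs the opposite way to oxidation, include the regulator Srebf1 and Mlycd, which breaks down malonyl-CoA. Of the 11, 7 rose and 0 fell with DSS in ΔNFκB mice, where 16.2% of all genes were higher and 19.2% lower. In WT mice 2 rose and 1 fell, where 17.2% of all genes were higher and 18.8% lower. The responses of 6 were higher and of 1 lower in ΔNFκB mice, where those of 8.63% of all genes were higher and 9.07% lower. Fasn, the fatty acid synthase, stood at 286 and 314 CPM untreated and 366 and 285 with DSS in WT mice, against 231 and 211 untreated and 505 and 509.9 with DSS in ΔNFκB mice. It rose by 1.20 ± 0.14 in ΔNFκB mice (adjusted p = 0.00076), was 0.12 ± 0.14 in WT mice (adjusted p = 0.54), and differed by 1.08 ± 0.20 (adjusted p = 0.014). Scd2, a desaturase, stood at 1286 and 996 CPM untreated and 1241 and 1049 with DSS in WT mice, and 932 and 736 untreated and 2151 and 2337 with DSS in ΔNFκB mice, with a rise of 1.43 ± 0.19 in ΔNFκB mice (adjusted p = 0.0011) and a difference of 1.42 ± 0.26 (adjusted p = 0.014). Acacb, which makes the malonyl-CoA that restrains Cpt1a, went the other way. It stood at 8.70 and 10.1 CPM untreated and 36.3 and 33.4 with DSS in WT mice, against 8.68 and 8.13 untreated and 11.6 and 15.2 with DSS in ΔNFκB mice, and its rise was 1.89 ± 0.18 in WT (adjusted p = 0.00029) and 0.67 ± 0.18 in ΔNFκB mice (adjusted p = 0.022, lost with a sex term and without 3 of the 4 ΔNFκB libraries).

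The remaining lists were mixed. For comparison, 18.8% of all genes fell and 17.2% rose with DSS in WT mice, and 19.2% fell and 16.2% rose in ΔNFκB mice. Of 15 other peroxisomal genes 4 fell and 0 rose in WT mice and 2 fell and 3 rose in ΔNFκB mice. Abcd3, a peroxisomal importer of fatty acyl-CoA, changed by -0.89 ± 0.12 in WT and 0.01 ± 0.12 in ΔNFκB mice (difference 0.91 ± 0.17, adjusted p = 0.013). Of 9 other mitochondrial acyl-CoA enzymes 5 fell in WT and 3 in ΔNFκB mice, and Acot13, a thioesterase, changed by -1.74 ± 0.23 and -0.28 ± 0.22 (difference 1.45 ± 0.32, adjusted p = 0.022). Of 8 other PPAR and co-regulator genes 2 rose and 1 fell in WT mice and 4 rose and 0 fell in ΔNFκB mice. Esrra, a receptor that works with PGC-1α, rose in both (0.63 ± 0.14 and 0.46 ± 0.14), opposite to Ppargc1a, though the WT rise was 0.41 and not called without WT DSS replicate 1, and the ΔNFκB call was lost in 4 of 15 alternatives, a sex term among them. Of 5 tested PPAR targets outside oxidation 1 fell in WT and 3 in ΔNFκB mice, and Plin2, a lipid droplet protein, fell in both (-1.35 ± 0.18 and -1.01 ± 0.18, the latter -0.71 and not called with a sex term). Of 3 tested carnitine acyltransferases outside the members 1 rose and 1 fell in WT mice and 2 fell in ΔNFκB mice. Cpt1c, a relative of Cpt1a known from brain, was counted at 10 to 64 reads and rose in WT (1.25 ± 0.27) and fell in ΔNFκB mice (-1.46 ± 0.31), a difference of -2.71 ± 0.41 (adjusted p = 0.0088). The WT call was lost in 4 of 15 alternatives (DESeq2, a sex term, without WT untreated replicate 2 or WT DSS replicate 2) and the ΔNFκB call without ΔNFκB DSS replicate 1, while the difference kept its call in all 15.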

How the data were processed

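The deposited tables hold expected counts per gene, not normalized, from TruSeq Total RNA libraries read as 150-base pairs. The authors used HISAT2 2.1, SAMtools 1.8, Subread 1.6.2 with featureCounts and mm10, per the submitters' processing notes. The annotation release, the strand option and how multiply mapped reads were counted: not given in the sources used here. Since 18.8% of nonzero values are not whole, where whole counts had been assumed, they were rounded. Lines with the same symbol were summed. Groups came from the labels.

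After filterByExpr, with TMM scaling, there remained 17522 of the 30454 symbols with a count. An edgeR 4.0.16 quasi-likelihood fit of the 4 group means over all 8 libraries (R 4.3.3, 4 residual degrees of freedom) was used for two-sided tests, log2 fold changes and Benjamini-Hochberg adjusted p over all genes, with 0.05 as the threshold. For each SE the size of the log2 fold change was divided by the root of its F statistic. CPM are on TMM-scaled library sizes. The script was tested on simulated data. No permutation test was run, since 2 mice a group allow no p under 0.333. Whether libraries of a group are separate mice is given only by their labels, and the p-values measure the spread between them. RPKM used exon lengths of GENCODE M21, which also gave the mm10 positions. Sex was read as male above 5 CPM of Y-linked transcripts.

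The members are a list of names, and they and the other lists were chosen with earlier results of these data known. Members were named with all values where they passed a test or were regulators, shuttle, ketone body or peroxisomal genes, and other genes by the smallest p of their list, and 1 of them is not reported here. Marker lists were of epithelium, absorptive colonocytes, goblet cells, smooth muscle, neutrophils, macrophages, adipocytes, distal hindgut and small intestine. The alternatives were RLE factors, DESeq2 1.42.0, no filter, a replicate block, a sex term, removal of ribosomal RNA, mitochondrial, T cell receptor and immunoglobulin genes, the Ensembl table, and each library left out in turn, where the lone mouse of a group is assumed to vary like the others.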

Additional observations from a re-analysis of the deposited data

Results flagged for a closer look

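The response to DSS differed between ΔNFκB and WT mice, by edgeR's test of the difference itself, for 20 of the genes named. The values are ΔNFκB minus WT on the log2 scale. Among the members they were 1.35 for Pparg, 0.93 for Acat1, 0.91 for Cpt2, 0.91 for Acadl, 0.83 for Acsl5, 0.76 for Decr1, 0.75 for Etfa, 0.75 for Hadha, 0.73 for Bdh1 and 0.71 for Etfdh. Among the other genes of the pathway they were 1.45 for Acot13, 1.42 for Scd2, 1.08 for Fasn, 0.91 for Abcd3, 0.91 for Slc5a8, 0.88 for Oxct1, 0.83 for Aacs, -1.22 for Acacb, -1.58 for Cd36 and -2.71 for Cpt1c. Each group had 2 libraries, and of these calls only that of Cpt1c held under all 15 alternatives. Relative to the epithelial markers the values of the 10 members were 0.092 to 0.74, with no test. The 10 were selected by the difference itself, so these values are no separate evidence.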

How the results depend on the processing

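No called value of a named gene changed sign under the 15 alternatives. Of 88 called values, the 7 alternatives with all libraries together kept 576 calls and lost 40, and leaving out a library kept 547 and lost 157. Members called in WT mice with DSS numbered 20 to 21 with all libraries and 18 to 21 with a library left out. In ΔNFκB mice the 17 became 7 with a sex term, 11 with DESeq2 and 8 to 15 with a library left out. The 7 calls after DSS became 0 to 7 and the 10 differences of response 0 to 12 with a library left out, and without DSS the count was 0 throughout. With the replicate block there were 20, 16, 9, 10 and 0 calls for WT, ΔNFκB, after DSS, the difference and without DSS. The numbers do not pair the mice: replicate deviations correlated at -0.13 to 0.24 between groups. Uncalled values that changed sign with a sex term were Acsl5 at 0.023 and Acadl at 0.13 in WT, Cpt2 at 0.049 and Etfb at 0.071 in ΔNFκB mice, and Scd2 at -0.17 in WT. With a library left out, uncalled values in WT mice ran from -0.20 to 0.055 for Acsl5, -0.29 to 0.16 for Acadl, -0.21 to 0.0076 for Etfb, -0.037 to 0.23 for Aacs, -0.086 to 0.28 for Fasn and -0.14 to 0.23 for Scd2. In ΔNFκB mice they ran from -0.18 to 0.36 for Slc25a20, -0.046 to 0.13 for Etfa, -0.20 to 0.10 for Bdh1 and -0.015 to 0.080 for Abcd3. The causes were not tested. Over all genes, leaving out a library lowered the calls to as few as 3298 of 6315 in WT, 3373 of 6199 in ΔNFκB mice, 484 of 3499 after DSS and 489 of 3102 for the difference, a sex term gave 3343 in ΔNFκB mice, and without DSS the 68 became 0 to 330. Depth limits Slc27a2, Acaa1b and Ppara, which had the lowest levels.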
